A study of Mus musculus with 11 samples.

Results

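The genes described here are 10 members of the Yap and Tead pathway, taken by name from the deposited table of gene counts: Yap1, Wwtr1, Tead1, Tead2, Tead4, Amot, Amotl2, Ankrd1, Ctgf and Cyr61. All 10 were found among its 28284 genes, the last pair under these older symbols of Ccn2 and Ccn1. The data are bulk RNA sequencing of 11 mouse cell lines, 1 library per line, grown out of the gynecologic tract or tumors of 7 mice. Ovaries (ROV for the right, LOV for the left) yielded 7 of these lines, uteruses yielded 2, and the other two were grown from tumors of the spleen (F326) and the peritoneum (F361). A pair of lines came from each of mice F364, F326, F319 and F318. All 11 lines carry the genotype Ovgp1-Trp53-R270H-Myc (OvTrpMyc), in which the oviduct epithelium promoter Ovgp1 drives a dominant-negative mutant p53 together with MYC, and no line without the transgene was analysed here. The lines received no treatment and were dividing in RPMI medium when RNA was taken. According to the study's methods, the F361 peritoneal tumor line no longer expressed the mutant p53. Every line is 1 culture, so a p-value below measures the spread between lines, with lines of the same mouse taken as independent.

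The Hippo pathway passes information on cell contact, shape and tension to the nucleus. Its kinases phosphorylate the coactivators YAP (Yap1) and TAZ (Wwtr1), which are then kept in the cytoplasm or degraded. When they are not phosphorylated, both enter the nucleus and bind TEAD transcription factors, since neither binds DNA alone. Ctgf and Cyr61, which encode secreted matricellular proteins, Ankrd1, an ankyrin repeat protein, and Amotl2 are widely used readouts of YAP/TAZ activity, and the angiomotins Amot and Amotl2 bind YAP and hold it at junctions. YAP activity is regulated mainly on the protein, which RNA counts do not measure.

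Promoters of target genes were taken from RefSeq (build GRCm38.p6) because they hold the letters that TEAD factors recognise, and the 250 bases upstream of each start are given 5′ to 3′ on the gene's own strand. Capitals mark GGAATG or its reverse complement CATTCC. The windows are chr3:145649986-145650235 for Cyr61 (minus strand), chr9:102717554-102717803 for Amotl2 (plus strand) and chr19:36119845-36120094 for Ankrd1 (minus strand).
Cyr61: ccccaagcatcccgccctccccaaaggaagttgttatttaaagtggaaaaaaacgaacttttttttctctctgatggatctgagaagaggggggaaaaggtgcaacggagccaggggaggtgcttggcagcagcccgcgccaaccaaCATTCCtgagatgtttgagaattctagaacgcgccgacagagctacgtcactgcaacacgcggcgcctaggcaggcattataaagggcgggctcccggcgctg
Amotl2: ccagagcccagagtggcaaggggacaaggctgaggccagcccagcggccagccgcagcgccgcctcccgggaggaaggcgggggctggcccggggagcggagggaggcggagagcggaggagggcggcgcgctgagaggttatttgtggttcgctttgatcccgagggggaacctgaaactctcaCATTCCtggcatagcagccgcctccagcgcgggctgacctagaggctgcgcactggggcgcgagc
Ankrd1: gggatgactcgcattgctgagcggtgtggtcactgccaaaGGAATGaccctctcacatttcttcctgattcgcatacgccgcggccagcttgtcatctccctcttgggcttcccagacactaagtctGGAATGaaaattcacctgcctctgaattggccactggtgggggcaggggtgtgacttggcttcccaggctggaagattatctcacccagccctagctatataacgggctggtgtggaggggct
The match in Cyr61 began 103 bases before the start and that in Amotl2 65 bases before it, while Ankrd1 held 2 matches, at 210 and 123 bases. Yap1 and Wwtr1 themselves held GGAATG, at 141 and 136 bases before the start. A window was given for 7 of the 10 members, and 5 of these 7 held the motif on either strand. Among 32851 promoter windows of 300 bases (250 before and 50 after the start), 14.7% held it. The AP-1 motif TGAGTCA, or TGACTCA on the other strand, was in 0 of the 7 members' windows and in 5.20% of the 32851. A match of 6 letters describes the sequence and does not show binding. Ctgf, Tead1 and Tead4 had no window in the table.

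Library totals ran from 13580525 to 27044598 counts, so a count of 3 corresponded to 0.111 to 0.221 counts per 1000000 counts of the library (CPM). The lowest count of a member was 56 (Tead4 in F326 ROV, 3.74 CPM, 95% Wilson interval 2.88 to 4.85), and such intervals cover counting error only. All 11 lines are labelled ovarian cancer, yet 8 epithelial markers summed to 3.16 to 164 CPM, with Epcam at 2.12 CPM or less in each line. Keratins were the highest of them, with Krt18 up to 67.9, Krt8 up to 52.7 and Krt7 up to 40.5 CPM. Summed mesenchymal markers reached 1359 to 35459 CPM. The labels number the libraries from S1 to S11 without a break. Expression had a break between S1 to S7 (5 ovary and both tumor lines) and S8 to S11 (2 ovary and both uterus lines), and these sets, drawn with that break known, are not groups of the study. The 39 skeletal muscle fiber genes took 7.99% to 15.3% of counts in S1 to S7 and 0.165% to 1.32% in S8 to S11. Summed heart muscle markers (7.15 to 45.9 against 0.611 to 3.81 CPM) and blood markers (8.37 to 17.9 against 2.11 to 3.36 CPM) were also higher in S1 to S7 without overlap, and the 3 endothelial markers (56.1 to 253 against 1.48 to 70.9 CPM) with overlap. The heart muscle sum rested on Myh6 and Actc1. Tnni3 reached higher in S8 to S11 (0 to 1.34 against 0.325 to 2.26 CPM), and Nppa stayed at 0.401 CPM or less. Summed mesenchymal markers were lower in S1 to S7 (1359 to 15756 against 20055 to 35459 CPM). Of these, Vim, Col1a1, Col3a1 and Fn1 were each lower without overlap, while Col1a2, Pdgfra, Pdgfrb and Thy1 overlapped. Differences between the sets are therefore given as a description, with no test. The set was a term in each tissue comparison, and values from the tissue labels alone are given beside them. In bulk RNA, fewer cells of a type and less RNA per cell cannot be told apart.

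By median over the lines, the secreted targets were the most abundant members, and Tead2 and Tead4 the least abundant. On a scale of CPM per kb of exon, the medians over 11 lines were 211 for Cyr61, 125 for Ctgf, 37.5 for Amotl2, 35.9 for Ankrd1, 24.7 for Wwtr1, 15.8 for Tead1, 12.1 for Yap1, 8.43 for Amot, 6.46 for Tead2 and 2.08 for Tead4. Several neighbours in this order were not separated by their spread. Cyr61 exceeded Ctgf in 7 of 11 lines, Amotl2 exceeded Ankrd1 in 4, Tead1 exceeded Yap1 in 7, Yap1 exceeded Amot in 6 and Amot exceeded Tead2 in 6. The low rank of Tead2 came from S1 to S7, and in S8 to S11 it was at 11.6 to 37.7 CPM per kb beside 3.29 to 4.57 for Amot. The step from Ctgf to Amotl2 was clearer, with Ctgf the higher in 10 of 11 lines, and Wwtr1 exceeded Tead1 in 9. Per length, Wwtr1 was also the more abundant coactivator, and the ratio of Yap1 to Wwtr1 had a median of 0.578 and passed 1 only in F318 LOV, at 1.11.

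Among lines, Ctgf and Ankrd1 varied most and Tead1 least. Ctgf spanned 76.0-fold, from 29.1 CPM in the F326 splenic tumor line to 2211 CPM in F333 uterus. Ankrd1 spanned 44.4-fold (18.7 CPM in F326 ROV to 830 CPM in F333 uterus) and Amotl2 25.1-fold (23.5 to 589 CPM). Tead2, which is high in early embryonic tissue, spanned 25.0-fold, from 7.22 CPM in the F361 peritoneal tumor line to 180 CPM in F319 uterus. Cyr61 spanned 9.14-fold (92.4 to 845 CPM), less than Tead2. Tead1 stayed within 2.16-fold (131 to 282 CPM). Within S1 to S7, the SD of log2(CPM + 1) was larger for Ctgf than for 98.5% of genes and larger for Ankrd1 than for 97.3%, against 21.0% for Tead1. Within S8 to S11 the same shares were 84.8% for Ctgf, 97.9% for Ankrd1 and 17.2% for Tead1.

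**Figure D1:**
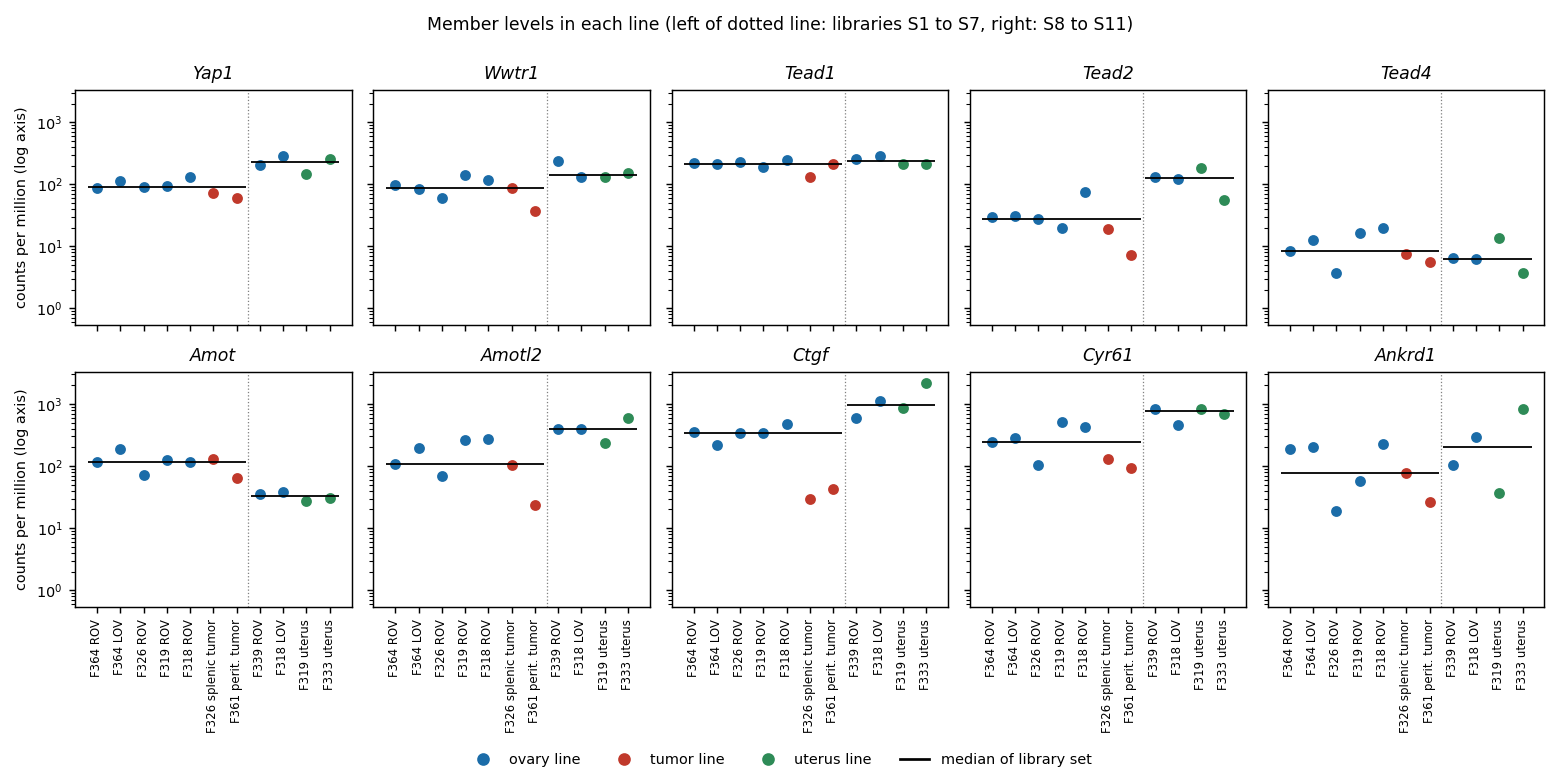
Level of each member in each line, in CPM on a log axis, with 1 point per line coloured by tissue and a bar at the median of each library set. Ctgf in both tumor lines (29.1 and 42.8) lies below the other 9 lines, Amot in S8 to S11 (27.7 to 38.4) lies below S1 to S7, and Tead1 is nearly level.

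Between the library sets, Yap1 and Ctgf were higher in every line of S8 to S11 than in any line of S1 to S7, Amot was lower, and the other 7 members overlapped. Of 14665 genes with a mean of at least 1 CPM, 27.8% were higher without overlap and 17.1% lower, so a share of 3 in 10 members lies below this background. With tissue as a covariate, the edgeR fit gave the members a median log2 difference of 0.64, and all genes one of -0.02. Each fitted difference below is given with its SE as a measure of spread.

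Of the coactivators, Yap1 was measured at 59.0 to 132 CPM in S1 to S7 (median 89.6). In S8 to S11 it was at 202 CPM in F339 ROV, 284 in F318 LOV, 149 in F319 uterus and 254 in F333 uterus, so the sets did not overlap in CPM. After TMM scaling, which sets libraries level on the bulk of their genes, F319 uterus (121) fell below F364 LOV (131) and F318 ROV (122), and the sets overlapped. The fitted difference was 0.90 ± 0.28 (log2, SE; 1.87-fold). Wwtr1 was at 37.2 to 140 CPM in S1 to S7 and 133 to 234 CPM in S8 to S11, with a difference of 0.55 ± 0.37.

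Among the TEAD factors, Tead2 was at 7.22 to 74.3 CPM in S1 to S7 (median 27.4). In S8 to S11 it was at 130 CPM in F339 ROV, 122 in F318 LOV, 180 in F319 uterus and 55.3 in F333 uterus. Only F333 uterus lay within the range of S1 to S7, whose highest line was F318 ROV. The difference was 1.48 ± 0.50 (2.78-fold). Tead1, known for its part in heart and skeletal muscle, was at 131 to 248 CPM in S1 to S7 and 211 to 282 CPM in S8 to S11, with a difference of -0.05 ± 0.25. Tead4, known from the trophectoderm, gave -1.26 ± 0.61, at 3.74 to 19.8 CPM against 3.67 to 13.7 CPM.

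The make-up of the TEAD family therefore differed between lines. Of the summed level of Tead1 to Tead4 (CPM per kb), Tead1 took 38.5% to 73.5% in S1 to S7 and 23.6% to 41.6% in S8 to S11. Tead2 took 7.09% to 32.8% in S1 to S7 and 30.5% to 57.1% in S8 to S11, where it was the largest share in F339 ROV, F318 LOV and F319 uterus. Tead3, which is no member, was at 8.81 to 54.4 CPM and 52.1 to 64.3 CPM. Its difference was 0.81 ± 0.47. F318 ROV stood nearest to S8 to S11, with a Tead2 share of 32.8% and a summed TEAD level of 47.4 CPM per kb, beside 18.8 to 27.8 in the other 6 lines of its set. It also had the lowest muscle fiber share of its set (7.99%).

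**Figure D2:**
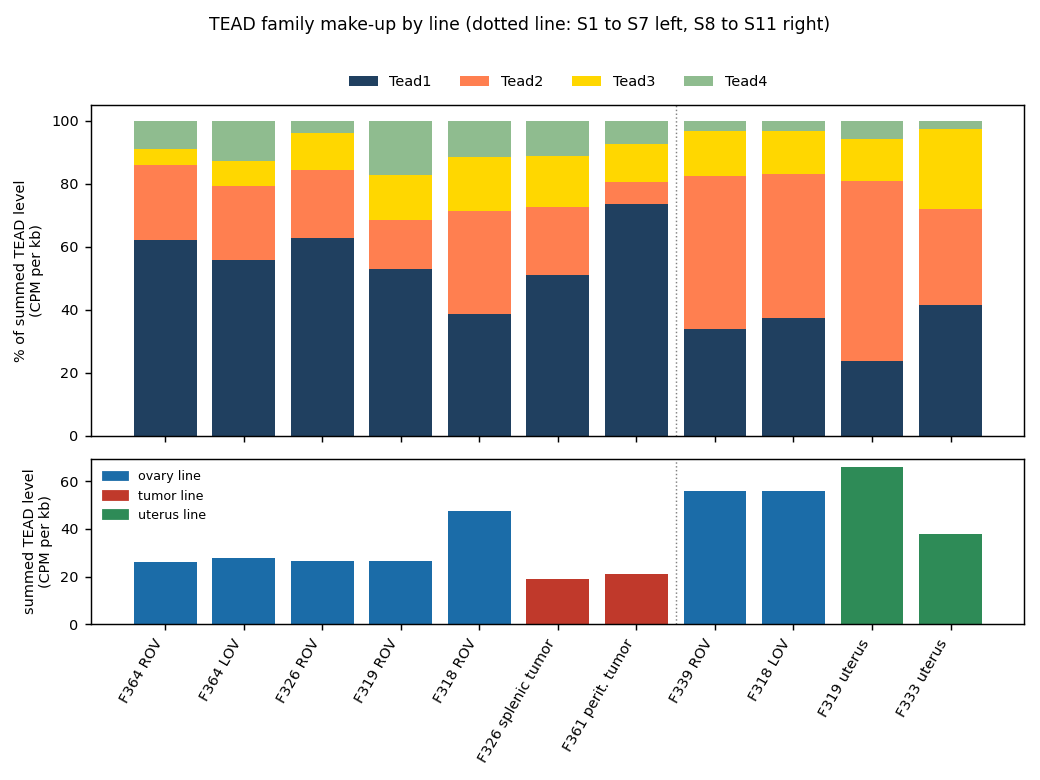
Share of each TEAD gene in the summed TEAD level of each line (upper bars, % of CPM per kb) and that summed level in CPM per kb (lower bars, coloured by tissue), both with axes from 0. Tead1 takes 73.5% in the F361 peritoneal tumor line, and Tead2 takes 57.1% in F319 uterus.

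Of the angiomotins, Amot was lower in S8 to S11, and Amotl2 overlapped. Amot was at 63.4 to 189 CPM in S1 to S7 (median 117). In S8 to S11 it was at 35.9 CPM in F339 ROV, 38.4 in F318 LOV, 27.7 in F319 uterus and 30.7 in F333 uterus, all below the lowest line of S1 to S7, the F361 peritoneal tumor line. The difference was -2.10 ± 0.44 (4.28-fold lower). Amotl2 was at 23.5 to 276 CPM in S1 to S7 and 236 to 589 CPM in S8 to S11, with a difference of 0.83 ± 0.61. Per length, the ratio of Amot to Amotl2 was 0.316 to 2.02 in S1 to S7 and 0.0391 to 0.0878 in S8 to S11. Amotl1, the third angiomotin, was also lower in S8 to S11 (-1.08 ± 0.38), at 365 to 538 CPM in S1 to S7 and 127 to 298 CPM in S8 to S11.

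Of the targets, Ctgf was at 592 CPM in F339 ROV, 1106 in F318 LOV, 850 in F319 uterus and 2211 in F333 uterus. All 4 values lay above the highest of S1 to S7, which was 476 CPM in F318 ROV. The fitted difference was 0.96 ± 0.42. Cyr61 gave 0.73 ± 0.46 (92.4 to 519 against 460 to 845 CPM) and Ankrd1 gave 0.17 ± 1.10 (18.7 to 227 against 36.8 to 830 CPM).

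The size of these differences depended on single lines to unequal degrees. With any 1 line left out, Amot stayed between -2.24 and -1.83 and Tead2 between 1.31 and 1.81, while Yap1 ran from 0.62 to 1.15 and Ctgf from 0.43 to 1.37, both lowest without F318 LOV. With a term for each mouse, the set difference was that of the F318 ovary pair, at -1.74 for Amot, 0.97 for Yap1, 0.58 for Tead2 and 1.08 for Ctgf. Scaling by library totals without TMM moved the median of all genes to 0.32 and turned Tead1 to 0.30. Summed muscle fiber, heart muscle, blood, endothelial and mesenchymal markers moved with the same split, and their part in it was not tested.

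**Figure D3:**
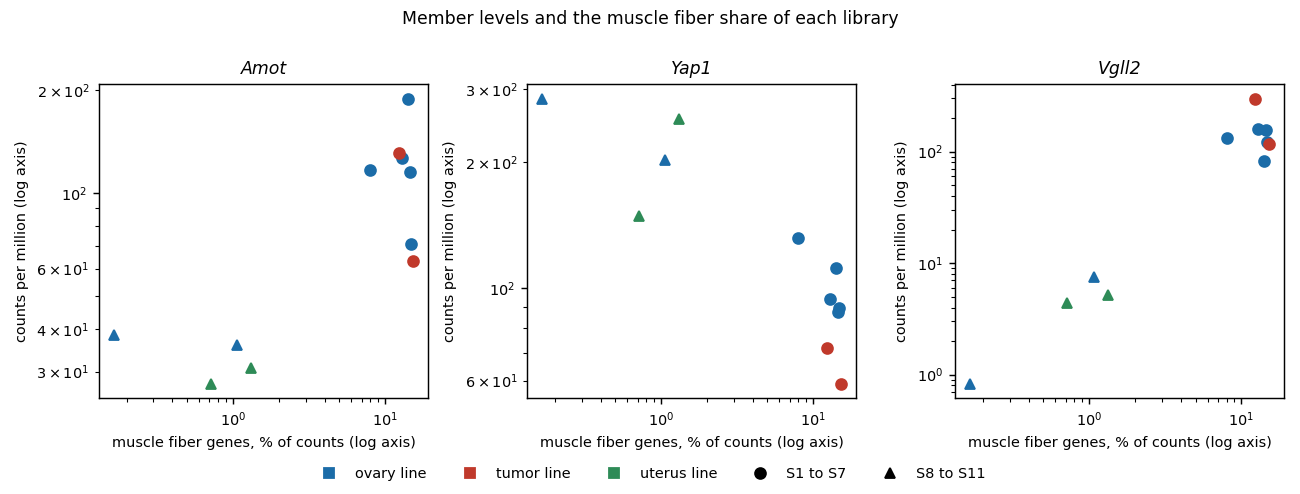
Amot, Yap1 and Vgll2 in CPM against the share of counts taken by 39 muscle fiber genes, both on log axes, with 1 point per line (circles S1 to S7, triangles S8 to S11, coloured by tissue). The sets stand apart on the muscle axis (0.165% to 1.32% against 7.99% to 15.3%), with Amot and Vgll2 high and Yap1 low where that share is high.

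The tumor lines had the lowest Ctgf of the series. All 10 members had a negative fitted difference between tumor and ovary lines, as did 49.1% of all genes tested, with a median log2 value of -1.02 beside 0.01 over all genes. With the library set as a covariate, 0 of 10 members passed the edgeR quasi-likelihood test (Benjamini-Hochberg adjustment over 17317 genes), 3 at an unadjusted p under 0.05. The test called 0.0520% of these genes (9, all lower). By the tissue labels alone, with no set in the model, 0 members passed (4 at an unadjusted p under 0.05), 0 of all genes did (1575 unadjusted), and the members' median was -1.10. A 2-against-5 exact permutation test within S1 to S7 cannot go below p = 0.0952 (two-sided).

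Ctgf was at 29.1 CPM in the F326 splenic tumor line and 42.8 CPM in the F361 peritoneal tumor line. The ovary lines of S1 to S7 were at 476 CPM (F318 ROV), 357 (F364 ROV), 348 (F326 ROV), 340 (F319 ROV) and 221 (F364 LOV). The tumor lines thus lay far below the lowest ovary line. The fitted difference was -3.11 ± 0.53 (8.66-fold lower, 95% interval -4.29 to -1.93), with an edgeR adjusted p of 0.0697 that just missed the threshold. DESeq2 called it (adjusted p = 2.37e-08), as did edgeR with no filter on low counts (adjusted p = 0.0140) and edgeR with a term for each mouse (adjusted p = 0.0360). Over the other alternatives with 11 lines and the set in the model, and over the left-out lines, the edgeR or limma adjusted p ran from 0.0620 to 0.515, and the log2 difference stayed between -3.44 and -2.86 when lines were left out. By the tissue labels alone it was -3.46 (edgeR adjusted p = 0.536).

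The other member targets overlapped between the groups. Cyr61 was at 128 and 92.4 CPM in the tumor lines, and at 105 (F326 ROV), 241, 288, 427 and 519 CPM in the ovary lines of S1 to S7. It overlapped only through F326 ROV, with a difference of -1.35 ± 0.52 (edgeR adjusted p = 0.441). Amotl2 was at 103 and 23.5 CPM beside 68.7 to 276 CPM (-1.36 ± 0.68, edgeR adjusted p = 0.550). Ankrd1 was at 76.7 and 26.7 CPM beside 18.7 to 227 CPM (-1.31 ± 1.20, edgeR adjusted p = 0.749). For Amotl2 and Ankrd1, the tumor lines lay inside or across the ovary range.

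Upstream of the targets, no member passed, and Yap1 and Tead2 were lower in both tumor lines without overlap in CPM. Yap1 was at 72.0 and 59.0 CPM beside 87.6 to 132 CPM in the ovary lines of S1 to S7, without overlap, for a difference of -0.51 ± 0.30 (edgeR adjusted p = 0.612). Tead2 was at 19.3 and 7.22 CPM beside 19.7 to 74.3 CPM, for a difference of -1.29 ± 0.58 (edgeR adjusted p = 0.512); its groups were separate in CPM but overlapped after TMM scaling. Ctgf, Yap1 and Tead2 were thus the 3 members lower without overlap, and 13.6% of 14665 genes were. Wwtr1 (-0.52 ± 0.39), Tead4 (-0.74 ± 0.60), Amot (-0.24 ± 0.39) and Tead1 (-0.21 ± 0.26) overlapped between the groups, and Amot in the F326 splenic tumor line (130 CPM) was above 4 of the 5 ovary lines. The sizes depended on which tumor line was kept. Without the F326 splenic tumor line the differences were -1.25 for Wwtr1, -2.15 for Tead2, -2.77 for Amotl2 and -2.24 for Ankrd1. Without the F361 peritoneal tumor line they were -0.038, -0.76, -0.66 and -0.74 for the same genes. Muscle fiber genes took 12.4% and 15.3% of counts in the tumor lines and 7.99% to 14.8% in these ovary lines, and mesenchymal markers summed to 6424 and 1367 CPM beside 1359 to 15756 CPM, so neither separated the groups.

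Mouse F326 gave both a tumor and an ovary line, and there the members moved in both directions. Ctgf was 29.1 CPM in its splenic tumor line and 348 CPM in its right ovary line, 3.53 apart on the log2 scale of CPM + 1. Ankrd1 went the other way, at 76.7 CPM in the tumor line and 18.7 CPM in the ovary line. With a term for each mouse, the tumor difference was that of this pair, and Ctgf passed (-3.52, edgeR adjusted p = 0.0360, with 1 residual degree of freedom). Of the 10 members, 6 were higher in the tumor line of this mouse (among them Cyr61, Amotl2 and Amot) and 4 were lower (Yap1, Tead1, Tead2 and Ctgf).

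No member passed between uterus and ovary lines. With the library set in the model, 0 of 10 members passed (0 at an unadjusted p under 0.05), 5 were positive and 5 negative, and the median was 0.04 beside 0.07 over all genes. By the tissue labels alone, 0 passed as well (2 at an unadjusted p under 0.05), 7 were positive and the median was 0.56, with Amot at -2.01 (edgeR adjusted p = 0.322). The edgeR test called 0.00577% of 17317 genes, namely Hoxc11, a posterior homeobox gene (5.92 ± 0.62, edgeR adjusted p = 0.0374). DESeq2 called 125 genes and 0 members. Within S8 to S11, Ctgf was at 850 and 2211 CPM in uterus lines and 592 and 1106 CPM in ovary lines, for a fitted difference of 0.97 ± 0.53 (95% interval -0.21 to 2.14). Ankrd1 differed more between the uterus lines (36.8 and 830 CPM) than between the tissues, with an interval from -1.72 to 4.28. Tead1 (211 and 214 beside 257 and 282 CPM) and Amot (27.7 and 30.7 beside 35.9 and 38.4 CPM) were lower in both uterus lines, as were 13.7% of 14665 genes. An exact permutation test of 2 against 2 cannot go below p = 0.333.

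**Figure D4:**
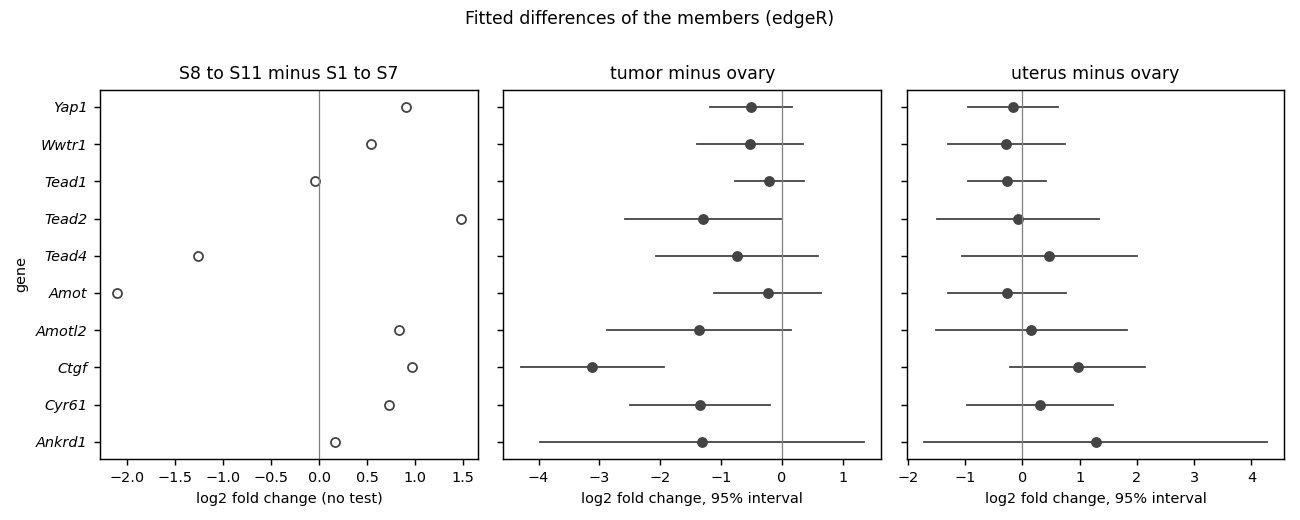
Fitted log2 fold changes of the 10 members with 95% intervals for tumor against ovary and uterus against ovary lines (filled points), and without intervals for the library sets (open points, no test). Between the sets Amot is lowest at -2.10 and Tead2 highest at 1.48, Ctgf stands at -3.11 in the tumor comparison without passing, and the uterus intervals all include 0.

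Of the 4 mice with a pair of lines, only F364 gave a pair of the same set and tissue. Its right and left ovary lines differed by a median of 0.30 (log2 of CPM + 1, absolute) and by at most 0.80, for Amotl2. The ovary lines of F318 fall into different sets. There Yap1 was at 132 CPM in the right line and 284 CPM in the left line, Ctgf at 476 and 1106 CPM, and Amot at 117 and 38.4 CPM. In F319, whose ovary line is in S1 to S7 and whose uterus line is in S8 to S11, Tead2 was at 19.7 and 180 CPM and Amot at 127 and 27.7 CPM. By CPM, 8 of the 10 members were higher in the S8 to S11 line of F318 and 5 in that of F319. Yap1, Tead2, Ctgf, Cyr61 and Tead1 were higher in both, Amot and Tead4 were lower in both, and Wwtr1, Amotl2 and Ankrd1 moved in opposite directions in the 2 mice. After TMM scaling, Cyr61 in F318 turned lower (396 in the right line and 388 in the left line). So did Tead1 in F319 (188 in the ovary line and 172 in the uterus line).

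The rest of the pathway was read from lists of kinases and scaffolds, junction proteins, TEAD partners and targets. Of the 18 genes of the Hippo kinase core, 8 were higher in S8 to S11 without overlap and 1 (Tnik) was lower, beside 27.8% and 17.1% over 14665 genes, and the median fitted difference was 0.73 beside -0.02 over all genes tested. Among the 8 were the MST kinases Stk3 (2.23 ± 0.26) and Stk4 (0.82 ± 0.22) and the MOB cofactors Mob1a (1.90 ± 0.31) and Mob1b (1.05 ± 0.22). The others were Lats1 (0.65 ± 0.32), which phosphorylates YAP, and the kinases Map4k4, Taok1 and Taok3. Stk3 was at 5.96 to 19.8 CPM in S1 to S7 and 62.2 to 100.1 CPM in S8 to S11. Lats2, the other LATS kinase, was at 0.09 ± 0.30. In the tumor comparison, 15 of the 18 were negative (median -0.31) and 0 passed (4 at an unadjusted p under 0.05), and 5 were lower in both tumor lines than in each ovary line of S1 to S7, beside 13.6% over 14665 genes. By median level, Map4k4 was the highest of the list (145 CPM) and Map4k1 the lowest (1.65 CPM).

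Of 16 junction and polarity genes, 7 were higher in S8 to S11 without overlap (Frmd6, Ajuba, Wtip, Tjp1, Inadl, Scrib and Dlg1) and Amotl1 was lower, beside 27.8% and 17.1% over 14665 genes. Frmd6, the Willin scaffold, gave 1.68 ± 0.30. Fat4, a protocadherin, was at 86.2 CPM in F339 ROV and at 2.37 to 5.36 CPM in the other 3 lines of S8 to S11, beside 1.52 to 20.8 CPM in S1 to S7. In the tumor comparison, 10 of the 15 tested were negative (median -0.23) and 0 passed (3 at an unadjusted p under 0.05), and 4 of the 16 were lower in both tumor lines without overlap, beside 13.6% over 14665 genes. Amotl1 had the highest median of the list (373 CPM), and Crb3, an epithelial polarity gene, had the lowest (0 to 0.589 CPM). Of the 4 TEAD partners listed, Tead3 among them, 2 were higher in S8 to S11 without overlap and 1 was lower, beside the same 27.8% and 17.1%. Among the TEAD cofactors, Vgll4, which competes with YAP for TEAD, was at 18.1 to 29.6 CPM in S1 to S7 and 40.8 to 62.0 CPM in S8 to S11. Vgll2, a skeletal muscle partner of TEAD, was at 82.9 to 299 CPM in S1 to S7 and 0.829 to 7.57 CPM in S8 to S11 (-5.30 ± 0.86), apart in the same way as the muscle fiber share. Vgll2 also had the highest median of this list (117 CPM) and Vgll4 the lowest (24.0 CPM).

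Of 16 further YAP/TAZ targets, 6 were higher in S8 to S11 without overlap and 0 lower, beside 27.8% and 17.1% over 14665 genes, with a median fitted difference of 0.88. These were Tgfb2 (1.62 ± 0.29), a growth factor, Axl (1.14 ± 0.40), a receptor kinase, Asap1 (1.93 ± 0.43), Ccdc80 (2.77 ± 0.82), Myof and Crim1, while the kinase Nuak2 (1.63 ± 0.53) overlapped. Of the 16, 11 had a positive fitted difference and 5 a negative one. The most negative were Nt5e (-2.30 ± 0.93) and Igfbp3 (-2.29 ± 1.33), both with overlap and named after their values were seen. In the tumor comparison, 15 of the 16 were negative, beside 49.1% of all genes tested, and 0 passed (5 at an unadjusted p under 0.05), with a median of -0.76 beside 0.01 over all genes. Within S1 to S7, 8 of the 16 were lower in both tumor lines than in each ovary line, and 0 were higher, beside 13.6% lower and 4.20% higher over 14665 genes. Fjx1 was one of them, at 2.03 and 1.18 CPM beside 5.45 to 8.81 CPM (-2.02 ± 0.47, edgeR adjusted p = 0.166). Axl was another, at 96.3 and 41.5 CPM beside 163 to 422 CPM (-1.65 ± 0.46, edgeR adjusted p = 0.276). Fjx1 and Axl were chosen here after their values were seen. Ccdc80 was the exception to the direction, at 1.28 ± 0.83. By median level, Axl was the highest of the list (235 CPM) and Foxf2 the lowest (1.58 CPM).

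**Figure D5:**
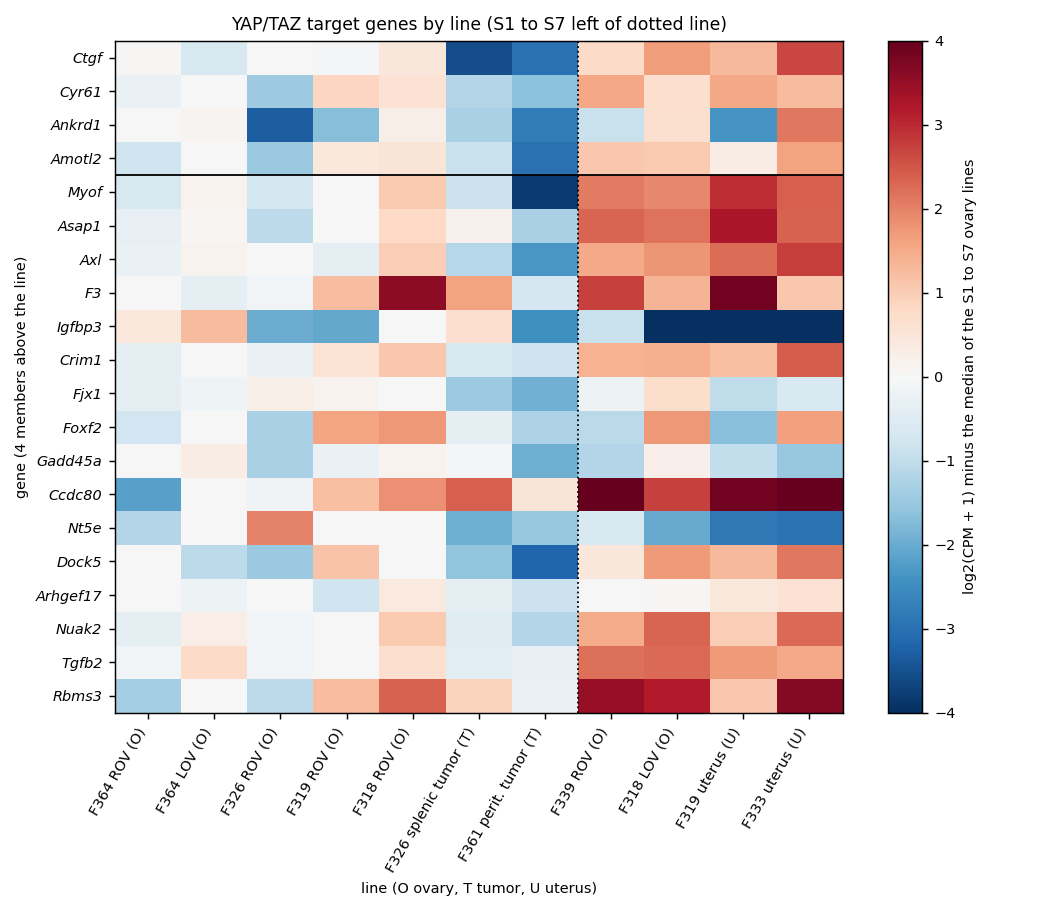
YAP/TAZ targets in each line, as log2(CPM + 1) minus the median of the ovary lines of S1 to S7, with colours held at -4 and 4, the 4 member targets on top and the 16 further targets below. The tumor columns are mostly blue (15 of 16 further targets have a negative fitted difference), and Ctgf is the bluest member in the F326 splenic tumor column.

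The genes whose pattern was most like that of a member were found by Pearson's r of log2(CPM + 1) over 11 lines, with the mean of each library set subtracted, among 11684 genes with a mean of at least 5 CPM. These lines share library set, depth and, in part, mouse, and each r is a description. Nuak2, from the target list, was nearest to Yap1 (r = 0.976, median 4.11 CPM), followed by Diaph2 (0.962), A230046K03Rik (0.943), Adpgk (0.939) and Ubqln2 (0.938). Lats1, the kinase that phosphorylates YAP, was nearest to Ankrd1 (r = 0.944), before Samd4, Pinx1, Ttll11 and Prmt5. Those most like Ctgf included Rrm1 (0.948), Lrrc8c, Cdca3 and Acsl5. Cyr61 was most like Ncapg2 (0.961), Tpm3-rs7, Depdc1a, Glns-ps1 and Gen1, of which Tpm3-rs7 and Glns-ps1 may share reads with their parent genes. Amot was most like Zfp869 (0.958), Arntl, Usp3, Mocs1 and Ranbp10. Among the members themselves, Wwtr1 was the nearest to Cyr61 (r = 0.834) and Amotl2 the nearest to Yap1 (r = 0.794), while Ctgf and Cyr61 gave r = 0.556.

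Yap1 lies on chr9:7931999-8004596 (GRCm38), and 13 other genes starting within 1 Mb of its start were in the fit. Between the sets, 5 of them had a positive fitted difference, as Yap1 did, and 8 a negative one. The nearest, Cep126, which starts 130 kb away, gave 0.88 ± 0.59. Tmem123, which starts 241 kb away, had a median of 46.6 CPM in S1 to S7 and 183 CPM in S8 to S11, and Dync2h1, 820.2 kb away, one of 4.74 and 11.9 CPM. The apoptosis inhibitors Birc2 and Birc3, which lie between Yap1 and Tmem123, had medians of 29.9 and 11.5 CPM in S1 to S7 and of 17.4 and 7.11 CPM in S8 to S11. Their fitted differences (-0.53 ± 0.28 and -0.76 ± 0.54) had the opposite sign to that of Yap1.

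The remaining members lie on chr3:57455649-57575910 (Wwtr1), chr7:112679318-112906807 (Tead1), chr7:45215753-45233644 (Tead2), chr6:128224288-128300823 (Tead4), chrX:145446425-145505181 (Amot), chr9:102716672-102733418 (Amotl2), chr19:36111961-36120099 (Ankrd1), chr10:24595442-24598683 (Ctgf) and chr3:145646976-145649981 (Cyr61). Yap1, Tead2 and Ctgf share exon sequence with a gene on the opposite strand. The partners were low, at no more than 0.228 CPM for Gm20416 (Yap1), 2.15 CPM for Cd37 (Tead2) and 0.436 CPM for Gm15270 (Ctgf). The strand setting of the counting is not given in the sources used here, so reads of the partners cannot be told apart from those of the members in the shared bases.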

How the data were processed

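Poly(A) RNA of 11 OvTrpMyc lines was sequenced from directional libraries, 1 per line. The authors aligned paired reads with STAR to mm10 (GRCm38), removed PCR duplicates, which can lower the counts of the most abundant genes, and deposited raw counts per gene from featureCounts; the tool versions and strand setting are not given in the sources used here. Counts were analysed as deposited, in 1 fit of all 11 lines with edgeR 4.0.16 (TMM, filterByExpr by tissue and library set, quasi-likelihood F test, terms for library set and tissue) in R 4.3.3. P-values were adjusted by Benjamini-Hochberg over 17317 genes with a threshold of 0.05, and the code was tested on simulated data. DESeq2 1.42.0, limma 3.58.1 with the mouse as a random block, edgeR with a term for each mouse, other scalings and filters and left-out lines were alternatives. CPM used the total of all 28284 genes, level per length used the exon union of each gene from GENCODE on GRCm38, and promoters came from RefSeq. The members, lists and library sets (S1 to S7 and S8 to S11) were chosen with earlier results of these data known, so the planned test between the sets is not reported as one. Named were all members, list genes past the threshold in that fit, list genes without overlap between the sets (added after their values were seen), each list's highest and lowest by median level, Tead3, the 5 genes most like Yap1, Amot, Ankrd1, Ctgf and Cyr61, and genes near Yap1. Map4k2, Vgll1 and Acta1 were not used here. One gene that the naming rule gave is not reported here.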

Additional observations from a re-analysis of the deposited data

How the results depend on the processing

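No member passed in the uterus comparison under any alternative run. In the tumor comparison 0 passed, except that DESeq2, the fit with no filter on low counts and the fit with a term for each mouse each gave 1, Ctgf. Between the library sets, whose border follows expression, an adjusted p under 0.05 is not a test result. Counts under it are given only to compare settings. Of 17317 genes, 6397 were under it with TMM and 7851 with DESeq2, no smaller a share than 3 of 10 members. There 3 members were under it with TMM, upper-quartile and DESeq2 scaling, with no filter, without the muscle fiber genes and in limma with the mouse as a random block, 4 with library totals (added after seeing the data) and 4 in the ovary lines alone, and 0 to 4 with 1 line left out. Of the 3 (Yap1, Tead2 and Amot), Tead2 was over it in 6 of these 11 fits, Yap1 in 4 and Amot in 1, without F318 LOV, while Tead4 came under it in 1, without F326 ROV, and Ctgf in 2, without either uterus line. With the library set left out of the model the uterus differences of Yap1 (0.41), Wwtr1 (0.092), Tead2 (0.81) and Tead4 (-0.53) and the tumor difference of Amot (0.12) changed sign, and in limma the uterus differences of Amotl2 (-0.024) and Ankrd1 (-0.10) did. With library totals the set difference of Tead1 was 0.30. Leaving out 1 line gave uterus differences of -0.75 to 0.24 for Yap1, -0.62 to 0.16 for Wwtr1, -1.01 to 0.48 for Tead2, -0.61 to 1.07 for Tead4, -0.81 to 0.73 for Amotl2, -2.50 to 2.25 for Ankrd1, -0.046 to 1.55 for Ctgf and -0.055 to 0.79 for Cyr61. It gave tumor differences of -0.63 to 0.10 for Tead1 and -0.83 to 0.19 for Amot, and set differences of -0.12 to 0.048 for Tead1 and -0.79 to 0.76 for Ankrd1. The cause was not tested. Over all genes, DESeq2 called 442 in the tumor comparison and 125 in the uterus comparison, where edgeR called 9 and 1, the fit with no filter called 79 and 11, and edgeR without F326 ROV called 77 in the tumor comparison. The paired analysis in edgeR, with the mouse as a replicate block (added after seeing the data), left 1 residual degree of freedom, since 4 mice gave 2 lines each. Its tumor difference rests on F326, its set difference on F318 and its uterus difference on F319 beyond F318. It put 0 members under the threshold between the sets, 1 in the tumor comparison and 0 in the uterus comparison, and 2483, 132 and 25 of all genes. Signs changed for the uterus differences of Tead2 (2.33), Amotl2 (-0.83), Ankrd1 (-1.19) and Ctgf (-0.046), the tumor differences of Wwtr1 (0.64), Tead4 (1.06), Amot (0.94), Amotl2 (0.64), Ankrd1 (2.09) and Cyr61 (0.35), and the set differences of Tead1 (0.052) and Cyr61 (-0.030).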

Other observations

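In the tumor comparison 0 of the 12 genes that SRF and TGF-beta share with YAP as regulators passed the edgeR test (2 at an unadjusted p under 0.05). Of these, 11 were negative (median -0.93, beside 0.01 over all genes), as were 49.1% of all genes tested, with Vcl, which encodes the adhesion protein vinculin, at -1.23 ± 0.47 and Smad7, an inhibitor of TGF-beta signalling, at -1.57 ± 0.58. Between the library sets, 6 of the 12 were higher in S8 to S11 without overlap, beside 27.8% over 14665 genes. Mkl1, an SRF coactivator, was at 32.1 to 76.3 CPM in S1 to S7 and 129 to 183 CPM in S8 to S11, and Acta2, the smooth muscle actin, at 62.6 to 2152 CPM and 2636 to 3614 CPM. By median level, Thbs1 was the highest of the list (1173 CPM) and Tgfb1 the lowest (26.1 CPM).

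Of the 9 genes that were lower in the tumor lines, Nusap1, Kif22, Ube2c, Ccnb2, Incenp, Sgol1, Knstrn and Mastl are known to act in mitosis, and Lrrc8c encodes a channel subunit. Nusap1 was at -2.55 ± 0.30 and Kif22 at -2.74 ± 0.30 (edgeR adjusted p = 0.0375 for each). Lrrc8c (-1.92 ± 0.25) was also among the 5 genes most like Ctgf. These genes were named after their values were seen, and their part in the Ctgf difference was not tested.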
